A study of Mus musculus with 16 samples.

Results

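Colons of adult ICR mice born by cesarean section (CS) were compared with colons of mice born vaginally (VD), all after the same intestinal injury. ICR is an outbred stock, the genotype was wild type, and both groups had drunk 3% dextran sulfate sodium (DSS) for 8 days. The 4 DSS_CS and 4 DSS_VD libraries are 8 of the 16 in the series. The other 8 libraries, from vaginally born (CON_VD) and cesarean-born (CON_CS) mice on normal water, serve here as reference levels. A gene was compared where its FPKM (fragment counts scaled to transcript length and sequencing depth) was at least 1 in at least 4 of the 8 libraries, which 14313 of 39328 genes met. A gene near 0 in 1 group could pass this filter through the other group alone and then had to differ. This held for 108 of the genes compared, of which 82 were among the 1923 called, and the counts of calls below include them. Differences are given as DSS_CS minus DSS_VD in mean log2(FPKM + 1), with their SE, and "called", "rose" and "fell" are used where the limma p adjusted over all 14313 genes was under 0.05. Every "rose by" or "fell by" is in these log2 units, and where 2 sets of FPKM values are joined by "against", DSS_VD comes first and DSS_CS second, with replicates 1 to 4 in order. Beyond the 3 members of smallest p in each gene list and the 15 largest rises and falls, genes were chosen for naming after their values were seen. The labels do not say that each library came from its own mouse or from which litters, so p-values measure the spread between these samples, which may be technical.

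The colon lining is a sheet of epithelial cells, of which absorptive colonocytes take up salt, water and nutrients and goblet cells make mucus. DSS in the drinking water strips and injures this sheet, bacteria reach the tissue beneath, and neutrophils and monocytes enter. Fibroblasts then lay down and remodel matrix while crypt cells divide and cover the wound. The series title names susceptibility to colitis after cesarean birth, Lactobacillus and group 3 innate lymphoid cells (ILC3), the barrier lymphocytes that make interleukin-22 (IL-22), a cytokine that acts on epithelium.

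Several libraries stood apart before any comparison. DSS_CS replicates 3 and 4 held RNA of male accessory glands: the prostate gene Pbsn was at 0, 0.526, 128 and 1355 FPKM in DSS_CS and at 0, 0.492, 0.481 and 0 in DSS_VD. Of the prostate and seminal vesicle list, Tgm4 reached 0.121 to 274 and Defb50 0 to 258 in DSS_CS, with the high values in the same pair of libraries. The mean log2(FPKM + 1) over that list was 0.57, 0.67, 0.78 and 0.51 in DSS_VD and 0.52, 0.46, 1.86 and 3.04 in DSS_CS, and 1.91 in CON_CS replicate 1. The number of calls is therefore also given without that pair, as are the medians of some gene lists. A list given without such a value was not necessarily stable. Leaving out the pair moved the median of the steroid and corticoid list from -0.33 to -0.82. It moved that of the IL-1 family and inflammasome list from 0.70 to 0.41 and that of the erythrocyte list from 2.68 to 1.42. DSS_CS replicate 1 kept the most epithelial RNA of its group, and DSS_CS replicate 2 the least. The mean log2(FPKM + 1) over 10 pan-epithelial genes was 7.76, 8.5, 7.46 and 7.74 in DSS_VD and 7.45, 5.94, 6.44 and 6.73 in DSS_CS. The tissue label held, with the intestinal keratin Krt20 at 227 to 555 against 70.5 to 208 FPKM and the small intestinal genes Sis and Lct at 0 to 0.0195 and 0.0133 to 0.0531 in DSS_VD, while in DSS_CS Sis was listed at 0 in every library and Lct was at 0 to 0.1103. Every library had low Xist (0.0111 to 0.0888 against 0.0241 to 0.0576 FPKM) and the Y-linked Ddx3y at 11.9 to 14.97 against 16.2 to 17.8.

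**Figure D1:**
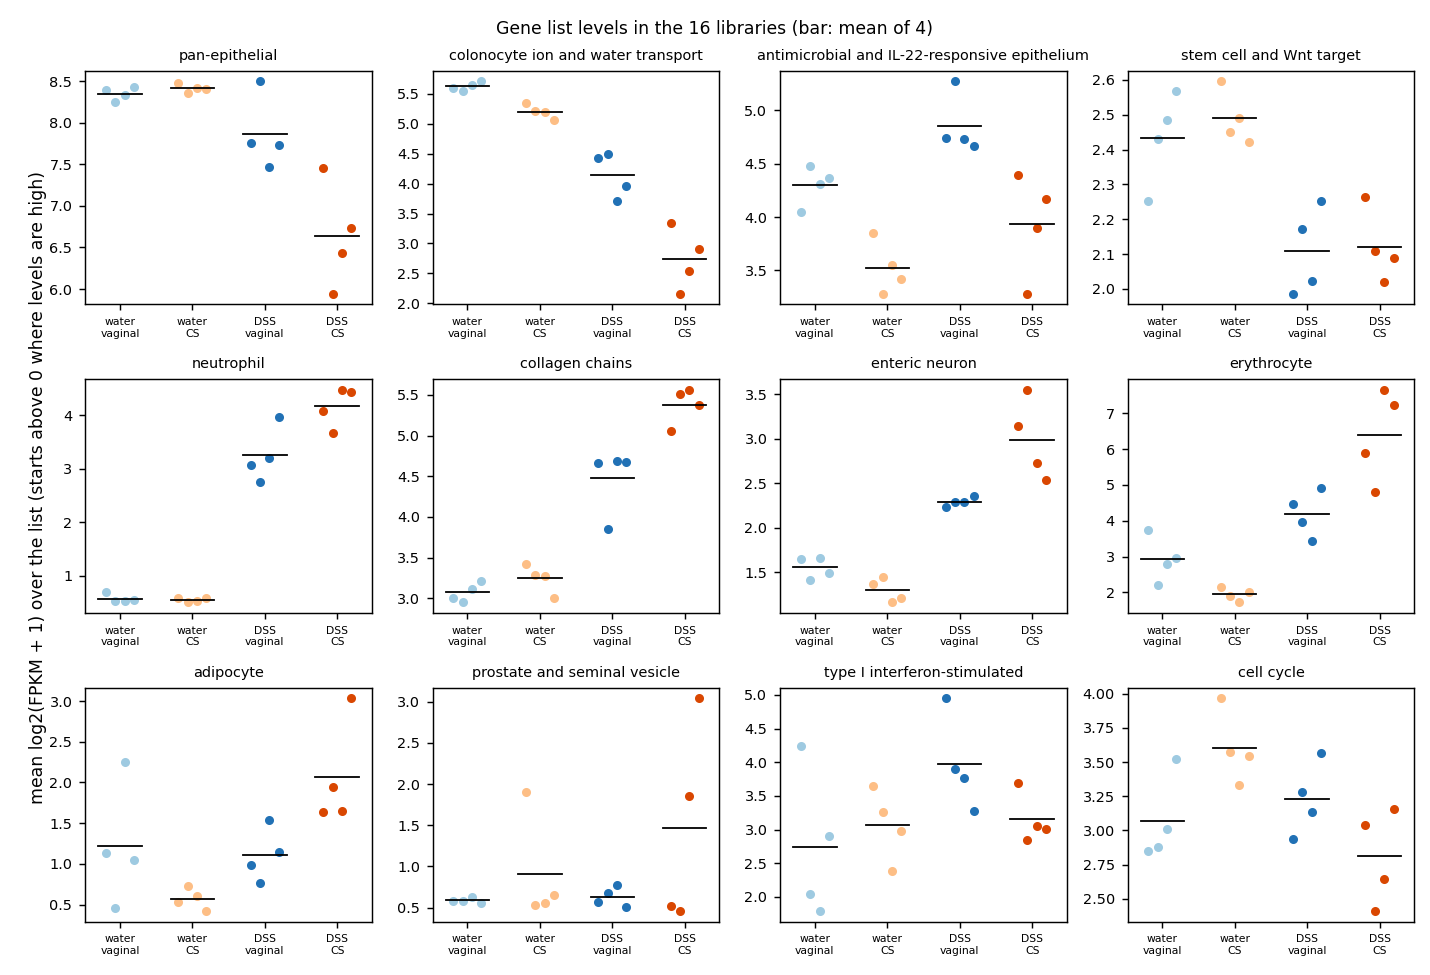
Mean log2(FPKM + 1) over the members of 12 gene lists (vertical axis) in each of the 16 libraries (points, replicates 1 to 4 from left to right) with the mean of the 4 libraries of a group (bar). Epithelial lists are lower and the neutrophil, collagen and enteric neuron lists are higher in the DSS CS libraries, the stem cell list is level, and the prostate list is raised in DSS CS replicates 3 and 4.

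Under DSS, cesarean-born colons had less RNA of differentiated epithelium and more RNA of neutrophils, inflammatory cytokines, extracellular matrix and enteric neurons. Of the 14313 genes, 1923 were called (13.4%), 1130 higher (7.89%) and 793 lower (5.54%) in DSS_CS. The falls were larger than the rises: the median called fall was -1.07 on the log2 scale and the median called rise 0.71, beside 0.06 over all tested genes. Of the calls 58.8% were higher; with median-of-ratios scaling 792 of 1677 calls were higher and 885 lower, and with scaling that leaves out mitochondrial, hemoglobin, immunoglobulin and prostate genes 1659 of 2359 were higher and 700 lower. A change of at least 1 log2 unit was reached by 427 of the lower genes and 184 of the higher ones. The FPKM ranges of the groups did not overlap for 1787 of the called genes, against 3216 of all tested genes (22.5%). Each of the 1923 kept its direction and an unadjusted limma p under 0.05 in every fit without 1 library that tested it, which 3126 of all tested genes did (21.8%). The number under the adjusted threshold nevertheless rested on single libraries. Leaving out DSS_VD replicate 1 gave 0 limma calls (4264 genes at unadjusted p under 0.05). With DSS_VD replicate 2 or 4 left out the number was 51 or 604, and with DSS_CS replicate 2, 3 or 4 left out it was 57, 1 or 639. Leaving out the pair with prostate RNA gave 6. Without that pair, 1754 of the 1923 still had an unadjusted limma p under 0.05, beside 3119 of all 13756 genes tested in that fit. The 1923 had been chosen with the remaining libraries among the data, so most had to stay low in p. Some of the 1923 were not tested in that fit. The medians of the pan-epithelial, transport, goblet cell, antimicrobial, neutrophil and enteric neuron lists were then -1.23, -1.15, -1.58, -1.55, 1.37 and 1.41, against -1.32, -1.34, -1.41, -1.5, 1.66 and 0.83 with all 8 libraries.

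**Figure D2:**
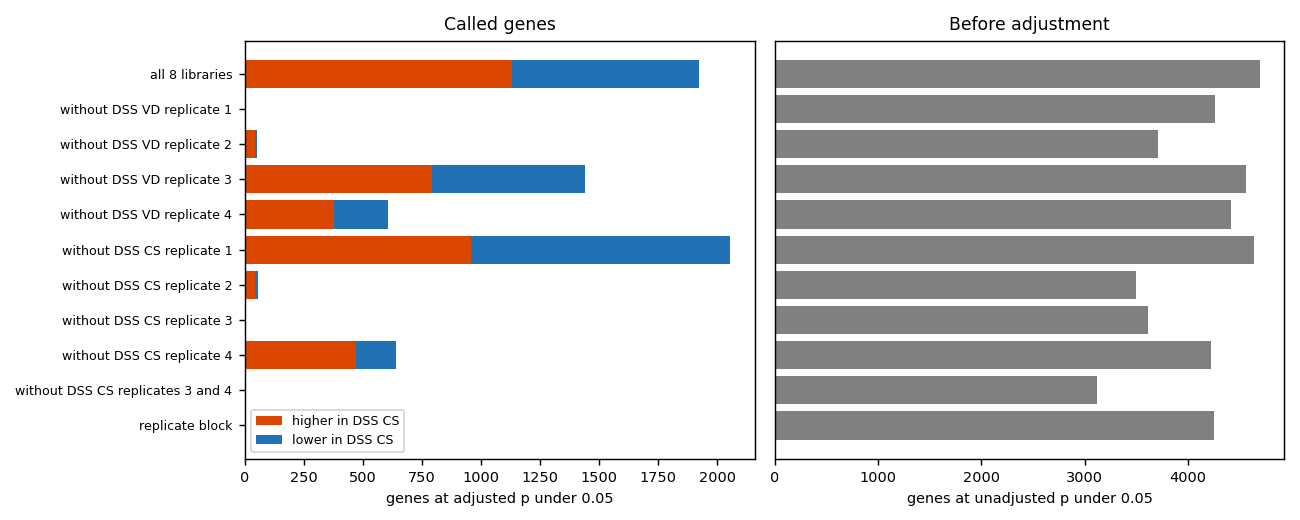
Number of genes at an adjusted limma p under 0.05 (left, higher in DSS CS in orange and lower in blue) and at an unadjusted p under 0.05 (right) with all 8 libraries, with each library left out, without DSS CS replicates 3 and 4, and with the replicate number as a block. The adjusted count runs from 0 to 2054 over the fits that leave out 1 library.

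The levels on water put these differences in order. Of the 1130 genes called higher, 925 had both DSS means above both water means, so that DSS_CS lay further from water than DSS_VD did. Of the 793 called lower, 445 had both DSS means below both water means. Another 175 lower genes had a DSS_VD mean above and a DSS_CS mean below both water means. Over all tested genes these 3 patterns held for 6137, 4004 and 459.

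Across the pan-epithelial list, 6 of 10 tested members were called lower and none higher, with a median difference of -1.32. Vil1, the microvillus protein villin, was at 134, 155, 79.1 and 86.6 FPKM in DSS_VD and 61.9, 21.7, 30.5 and 35.9 in DSS_CS. The groups did not overlap, and the level fell by 1.62 ± 0.33 (adjusted p = 0.0319). Epcam, an adhesion molecule of all colon epithelial cells, was at 442, 716, 317 and 393 against 312, 91.9, 134 and 169, so that the highest DSS_CS library, replicate 1, lay just under the lowest DSS_VD library. Cldn7, a claudin of the lateral membrane, fell by 1.48 ± 0.38 and Cdh1, which encodes E-cadherin, by 1.25 ± 0.33. In bulk tissue, fewer epithelial cells and less epithelial RNA per cell cannot be told apart. All 10 differences were below 0, but the size varied between genes. The simple keratin Krt18 ranged over 57.6 to 146 in DSS_VD and 42.6 to 91.8 in DSS_CS (log2 -0.46 ± 0.34, adjusted p = 0.386), and the claudin Cldn4, of the junction list, over 30.8 to 51.7 against 30.7 to 78.8 (log2 0.12 ± 0.28, adjusted p = 0.807). Cldn4 was at -0.02 without DSS_VD replicate 3 and -0.14 without DSS_CS replicate 1. Per 100 FPKM of Epcam, Krt18 stood at 13.01 to 25.4 FPKM in DSS_VD and 29.4 to 46.4 in DSS_CS, Cldn4 at 7.22 to 11.99 and 22.7 to 34.04, and Cdh1 at 30.4 to 38.6 and 37.4 to 45.01.

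Both chains of an apical amino acid carrier were at low levels, and lower in DSS_CS than in DSS_VD. Slc3a1 encodes rBAT and Slc7a9 encodes b(0,+)AT, the heavy and light chains of 1 apical transporter of cystine and basic amino acids. Slc3a1 (ENSMUSG00000024131, chromosome 17, 85028376 to 85064236, GRCm38) was at 3.77, 4.25, 3.54 and 3.35 FPKM in DSS_VD and 0.158, 0.167, 0.653 and 0.3398 in DSS_CS. The lowest DSS_VD value was several times the highest DSS_CS value (log2 -1.84 ± 0.14). Slc7a9 was at 4.23, 3.45, 1.46 and 3.06 against 0.363, 0.176, 0.609 and 0.798 (log2 -1.41 ± 0.24). No DSS_CS library reached 1 FPKM for either gene, so both passed the filter through DSS_VD alone, and their p-values are not used. On water Slc3a1 was at 1.92, 0.603, 1.46 and 2.7999 in CON_VD and 0.301, 0.433, 0.376 and 0.366 in CON_CS, again without overlap. Slc15a1, the oligopeptide transporter PEPT1, was at 36.7, 29.6, 11.3 and 13.5 against 7.47, 1.75, 2.94 and 3.04 (log2 -2.28 ± 0.44), and Slc6a14, a sodium- and chloride-driven amino acid carrier, at 47.5, 67.7, 49.4 and 68.4 against 35.4, 9.79, 13.8 and 23.6 (log2 -1.59 ± 0.35). Of 14 tested transporters 4 were called lower, Slc3a1 and Slc7a9 among them, and 1 higher. The riser was Slc38a2, the widely expressed neutral amino acid carrier SNAT2, at 17.1 to 19.5 against 22.1 to 25.4 (log2 0.36 ± 0.09), and it was no longer called under median-of-ratios scaling.

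Slc3a1, Slc7a9, Slc26a3, the surface colonocyte chloride-bicarbonate exchanger, and Hnf4a, a nuclear receptor of absorptive epithelium, were all lower in DSS_CS. For Slc3a1 and Slc7a9, which passed the filter through DSS_VD alone, this was fixed by the filter. Whether Hnf4a had a part in the levels of the others was not tested. As a description, the 250 bases before the starts of Slc3a1, Slc7a9 and Slc26a3 are shown. They come from RefSeq promoters of build GRCm38.p6, all on the plus strand, 5′ to 3′, from chr17:85028097-85028346, chr7:35448842-35449091 and chr12:31437969-31438218. The starts are those of RefSeq and can differ from the first base of the gene in GENCODE M21: the Slc26a3 stretch lies inside the longer gene listed there (chromosome 12, 31390871 to 31473917), and that of Slc7a9 begins after its listed first base (chromosome 7, 35448796 to 35466036). Capitals mark the letters CAAAGNNCA on either strand, a form of the HNF4 motif.
Slc3a1: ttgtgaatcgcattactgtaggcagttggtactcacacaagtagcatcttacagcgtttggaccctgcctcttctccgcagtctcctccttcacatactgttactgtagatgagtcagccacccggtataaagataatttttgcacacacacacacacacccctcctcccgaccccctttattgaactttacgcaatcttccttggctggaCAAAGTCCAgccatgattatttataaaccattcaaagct
Slc7a9: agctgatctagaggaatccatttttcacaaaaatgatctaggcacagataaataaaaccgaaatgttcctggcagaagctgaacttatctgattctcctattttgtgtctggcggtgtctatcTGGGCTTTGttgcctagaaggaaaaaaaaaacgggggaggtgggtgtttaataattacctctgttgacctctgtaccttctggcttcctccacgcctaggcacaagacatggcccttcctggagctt
Slc26a3: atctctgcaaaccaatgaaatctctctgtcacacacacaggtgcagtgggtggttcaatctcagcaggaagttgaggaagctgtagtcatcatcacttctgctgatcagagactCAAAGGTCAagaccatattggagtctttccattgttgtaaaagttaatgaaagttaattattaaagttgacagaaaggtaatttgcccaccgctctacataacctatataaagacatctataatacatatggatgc
The match in Slc3a1 lies 39 to 31 bases before the start and reads CAAAGTCCA, letters that 0.384% of all 32851 promoters hold in this window. Counted by gene, with a match in any of its promoters, they are in 0.512% of tested genes. They are in 8 of 559 promoter-matched genes called lower (1.43%) and in 3 of 846 called higher (0.355%). The looser CAAAGNNCA is in 5.49% of all promoters. By gene it is in 5.49% of tested genes, in 50 of 559 promoter-matched genes called lower (8.94%) and in 39 of 846 called higher (4.61%). These are letter matches and were not tested as binding sites. Hnf4a itself was at 65.4, 71.8, 40.3 and 56.4 FPKM in DSS_VD and 36.6, 9.36, 15.3 and 21.6 in DSS_CS (log2 -1.58 ± 0.37, adjusted p = 0.0356).

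Of the genes of salt and water uptake, 10 of 20 tested fell and none rose, with a median of -1.34. Slc26a3 was at 14.8, 17.8, 5.52 and 12.6 FPKM in DSS_VD and 2.56, 0.394, 0.366 and 1.54 in DSS_CS, against means of 128 and 94.9 on water. All 8 DSS libraries were thus below the water means, and DSS_CS was lowest. Slc5a8, a sodium-coupled carrier of butyrate and other short-chain fatty acids, was at 8.27, 11.8, 4.35 and 6.48 against 3.26, 0.5703, 0.901 and 1.399. Aqp8, a water channel of surface colonocytes, was at 298, 98.4, 45.4 and 24.6 against 12.1, 2.43, 13.2 and 13.8 and fell by 2.97 ± 0.77. Car4, a membrane carbonic anhydrase, fell by 2.88 ± 0.72. Gucy2c, the receptor for guanylin, was at 19.8, 24.4, 17.3 and 20.6 against 10.5, 3.46, 6.83 and 9.44, a fall of 1.41 ± 0.28. Scnn1b and Scnn1g, subunits of the aldosterone-driven sodium channel, were at 1.21 to 2.67 against 0.286 to 1.07 and at 1.33 to 2.65 against 0.199 to 0.936; Scnn1b fell by 0.85 ± 0.19, while Scnn1g, counted among the 10, passed the filter through DSS_VD alone. Nr3c2, the mineralocorticoid receptor, was at 10.7, 9.46, 4.799 and 7.13 against 3.77, 1.68, 1.998 and 2.53 (log2 -1.35 ± 0.25). Hsd11b2, which inactivates glucocorticoid in cells that answer to aldosterone, was at 11.95, 20.8, 8.59 and 13.7 against 4.53, 0.428, 1.24 and 2.503, after 107 and 115 on water (log2 -2.33 ± 0.41). Hsd17b2, which inactivates sex steroids, was at 33.4, 50.3, 22.1 and 24.6 against 15.5, 2.08, 6.15 and 6.85. These were the 3 called among 11 tested genes of the steroid and corticoid list, of which 4 had differences above 0.

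Detoxifying and lipid-handling enzymes of the surface epithelium followed, with 9 of 21 lower and none higher (median -0.93). The carboxylesterases Ces2e, Ces2c and Ces2a hydrolyse esters of lipids and drugs. Ces2e was at 64.5, 47.3, 22.1 and 36.8 FPKM in DSS_VD and 8.77, 1.09, 5.09 and 5.19 in DSS_CS, Ces2c at 53.1, 34.6, 16.2 and 18.9 against 7.04, 1.43, 4.87 and 6.13, and Ces2a at 20.8, 22.4, 6.11 and 8.19 against 3.74, 0.319, 1.22 and 1.63. In each of the 3, DSS_CS replicate 2 was lowest and the groups did not overlap. These genes, like the Cyp2d family, are close copies of one another, and reads they share could be split between them in the deposited values. Cyp2d9, a cytochrome P450 outside the list, fell by 2.42 ± 0.37. Other large falls outside the lists were those of Prss30, a membrane-anchored protease, by 2.61 ± 0.61, Tgm3, a transglutaminase, by 2.59 ± 0.59, and Tmem45b by 2.58 ± 0.62. Sult1b1, a sulfotransferase, fell by 2.08 ± 0.45, and the efflux pumps Abcb1a and Abcg2 by 1.42 ± 0.38 and 0.93 ± 0.19. Energy metabolism moved less. Its counts stand beside 13.4% called and 5.54% called lower over all tested genes, as do those of cholesterol synthesis. Of 17 genes of butyrate use and fatty acid oxidation 4 were lower (median -0.26, and -0.16 without the pair with prostate RNA), among them Hadha of the mitochondrial trifunctional protein, which fell by 0.33 ± 0.08. Of 24 nuclear genes of oxidative phosphorylation 2 were lower, Cox5a and Uqcrc2. Of the 24 differences 23 were below 0 (median -0.31), with 12 at unadjusted limma p under 0.05 and 2 without the pair with prostate RNA. Of 13 mitochondrial genes of oxidative phosphorylation none was called by limma (0 at unadjusted p under 0.05, smallest adjusted p = 0.608, for mt-Co1). In cholesterol synthesis 2 of 17 fell, Msmo1 by 1.13 ± 0.23 and Fdft1 by 0.89 ± 0.25. Fdft1 was no longer called under median-of-ratios scaling. All 17 differences were below 0 (median -0.56), with 12 at unadjusted limma p under 0.05 and 1 without the pair with prostate RNA.

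Of 24 tested genes of glycolysis and hypoxia 2 rose and 3 fell. Over all tested genes 7.89% were called higher and 5.54% lower. Of the 24 differences 19 were below 0 (median -0.20). Hk2, an inducible hexokinase, was at 123, 125, 102 and 61.4 FPKM in DSS_VD and 47.5, 17.3, 30.2 and 29.8 in DSS_CS, while the water means were 26.7 and 30.6. Vaginally born colons were thus well above water and cesarean-born colons near it. Egln3, an oxygen-sensing prolyl hydroxylase, was at 70.6, 75.01, 61.8 and 65.8 against 43.5, 21.4, 29.1 and 29.7, and Car9, a carbonic anhydrase that hypoxia induces, fell by 1.21 ± 0.32. Slc2a3, the glucose transporter of leukocytes and neurons, was at 1.85, 1.22, 1.82 and 1.84 against 3.22, 3.86, 3.68 and 4.09 and rose by 0.82 ± 0.12. Slc16a3, a lactate exporter, rose by 0.78 ± 0.22, a call that median-of-ratios scaling ended. The remaining 19 of 24 tested genes were not called.

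Goblet cell and mucus genes had 8 of 15 lower and none higher (median -1.41). Fcgbp, a protein of the mucus gel, was at 95.5, 114, 46.6 and 53.6 FPKM in DSS_VD and 24.8, 10.998, 25.9 and 25.9 in DSS_CS. Spink4, a goblet cell peptide, was at 93.8, 234, 66.1 and 156 against 51.3, 13.01, 19.3 and 25.5, and Retnlb, an antibacterial goblet cell protein, at 171, 595, 149 and 202 against 67.9, 10.4, 28.1 and 44.1. Muc2, the gel-forming mucin, fell by 1.40 ± 0.32, and the secretory regulators Atoh1 and Spdef by 1.30 ± 0.29 and 1.21 ± 0.34. Of the membrane mucins, Muc13 was at 419 to 916 against 85.2 to 291. The goblet regulator Creb3l1 ranged over 10.3 to 25.1 against 13.1 to 20.2 and was not called (log2 0.08 ± 0.25, adjusted p = 0.859; -0.02 under median-of-ratios scaling). Of 23 tested junction genes 10 fell and none rose. Cldn8, a sealing claudin of the distal colon, was at 31.6, 50.1, 21.1 and 37.4 against 12.04, 4.46, 5.003 and 14.1. The desmosomal cadherins Dsg2 and Dsc2 fell by 1.37 ± 0.29 and 1.31 ± 0.30, and the microvillus protocadherins Cdhr2 and Cdhr5 by 1.71 ± 0.41 and 1.62 ± 0.43.

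Transcription factors of the epithelium fell in 9 of 17 cases and rose in none (median -1.04). Klf4, a factor of differentiated surface cells, was at 78.9, 84.3, 45.9 and 55.8 FPKM in DSS_VD and 34.4, 21.2, 21.4 and 24.1 in DSS_CS. Vdr, the vitamin D receptor, was at 11.9, 11.4, 6.39 and 9.38 against 4.56, 1.99, 3.55 and 3.36, with water means of 37.4 and 37.3. Nr1h4, the bile acid receptor FXR, was at 20.1, 31.8, 18.5 and 26.6 against 13.3, 4.22, 7.51 and 8.49. Cdx2, an intestinal identity factor, was at 3.98 to 10.2 against 1.74 to 7.47 and was not called (log2 -0.66 ± 0.38, adjusted p = 0.266). Position genes split as well: Hoxb13, the most posterior gene of its cluster, was at 42.4, 58.5, 31.9 and 48.3 against 27.2, 8.04, 12.9 and 23.7, while Hoxa11 was at 6.55, 5.21, 6.45 and 5.04 against 8.896, 11.6, 10.6 and 10.3 and Hoxb3 and Hoxb4 rose by 0.69 ± 0.18 and 0.56 ± 0.14, the first not called under median-of-ratios scaling. The other 15 of 19 tested Hox genes were not called.

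Lists of crypt, repair and rare epithelial cells held 0 to 2 calls in each direction, where 13.4% of all tested genes were called. Of 14 tested stem cell and Wnt target genes 2 rose and 1 fell, with a median of -0.02 (-0.20 without the pair with prostate RNA), and Lgr5, Ascl2 and Olfm4 were below the filter. Smoc2, a matrix-associated protein of crypt base and stromal cells, was at 2.43, 2.81, 2.94 and 4.204 FPKM in DSS_VD and 12.3, 13.5, 7.53 and 8.44 in DSS_CS (log2 1.47 ± 0.20). Cd44, a hyaluronan receptor on crypt cells, fibroblasts and leukocytes, was at 10.8 to 17.5 against 21.3 to 38.6. Rnf43, a Wnt receptor brake, was at 2.55, 2.08, 2.05 and 2.23 against 1.67, 0.7195, 1.06 and 1.53 and fell by 0.54 ± 0.15. Of 15 wound-associated and fetal-like genes, Ly6a, which encodes Sca-1, was at 1060.2, 1368, 799 and 655 against 531, 251, 336 and 368 and fell by 1.38 ± 0.29. Spp1, which encodes osteopontin and is also made by macrophages, was at 2.83, 1.45, 2.198 and 5.26 against 8.76, 7.42, 13.4 and 15.8 and rose by 1.68 ± 0.32. Both DSS means of Ly6a, 971 and 371, were above the water means of 224 and 300.1. Among 12 enteroendocrine genes Sst, the somatostatin gene, was called, at 10.8, 8.14, 9.08 and 7.94 against 13.1, 18.1, 16.1 and 13.3; Chga was at 17.5 to 39.1 against 39.1 to 66.3 (adjusted p = 0.0726). In the tuft cell list the 1 call was Alox5ap, which activates 5-lipoxygenase and is also a leukocyte gene, at 9.29 to 17.8 against 24.9 to 38.1. None of 18 cell cycle genes was called by limma (4 at unadjusted p under 0.05), and all 18 differences were below 0 (median -0.41); Mki67, a proliferation marker, was at 10.02, 12.7, 10.3 and 15.9 against 9.396, 5.72, 6.11 and 10.3 (adjusted p = 0.0914).

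**Figure D3:**
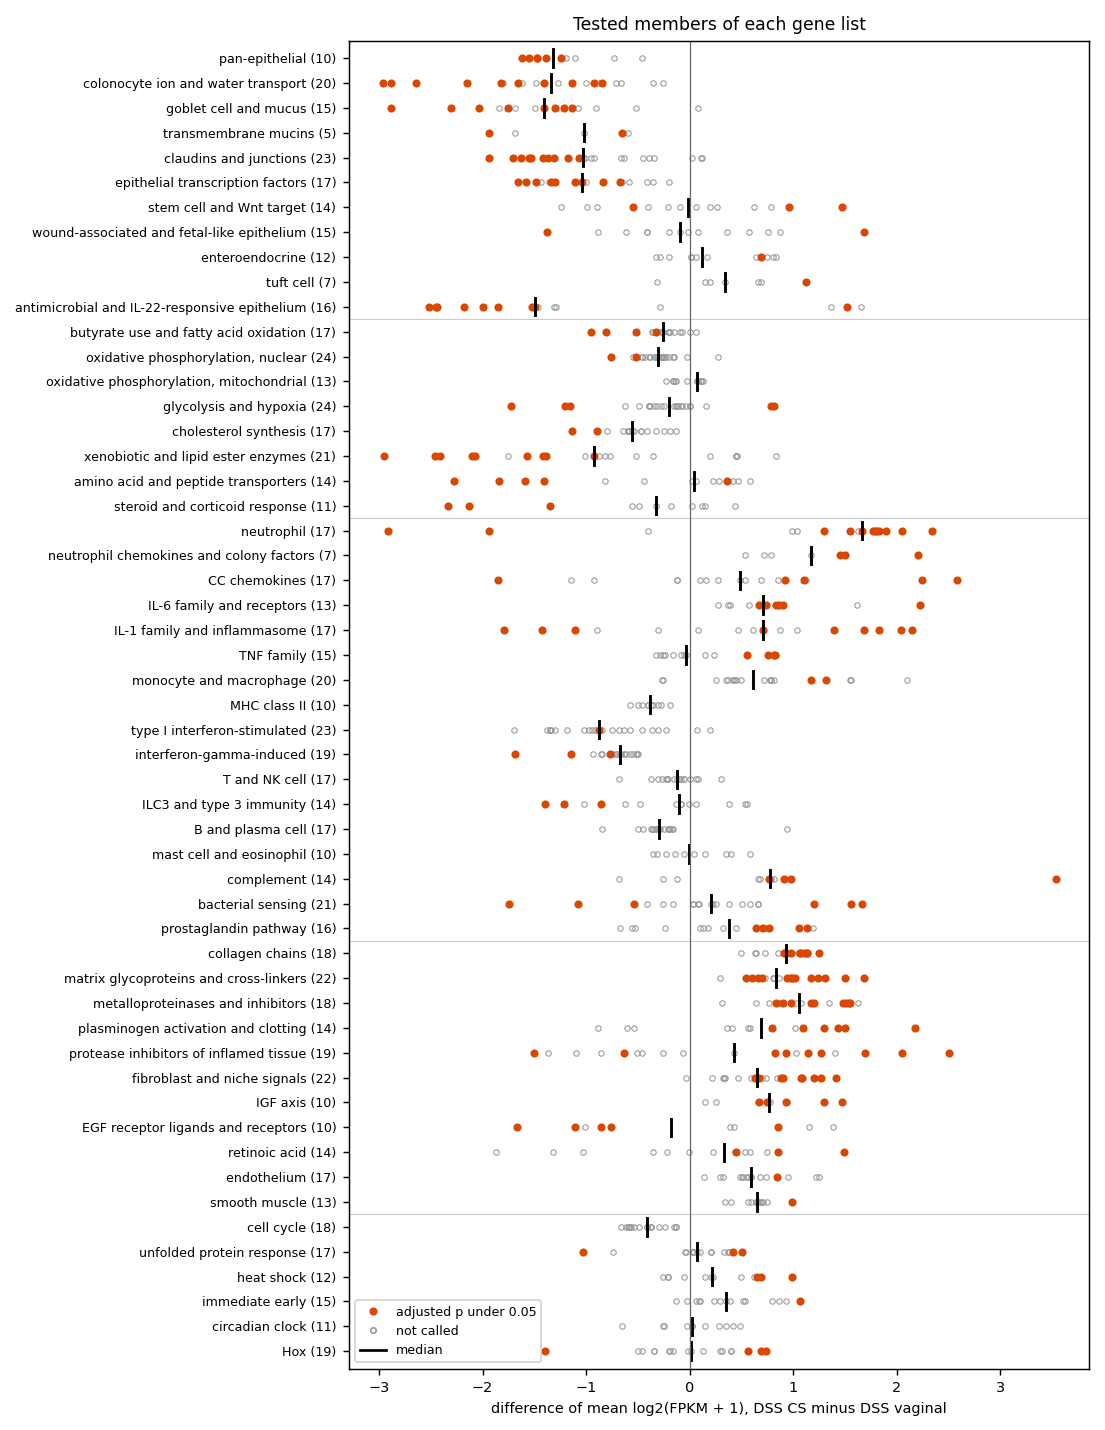
Difference in mean log2(FPKM + 1), DSS CS minus DSS vaginal (horizontal axis), for each tested member (circle) of the epithelial, metabolic, immune, stromal and cell state gene lists with at least 4 tested members. Called members are filled, the list median is a bar, and the number of tested members stands in parentheses. Lists of enteric neurons, glia, fat, blood, other tissues and sex-linked genes are not drawn. The medians of the pan-epithelial, goblet cell and transport lists lie below -1.3, those of the collagen and metalloproteinase lists near 1, and that of the stem cell list at -0.02.

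Antimicrobial defence of the epithelium was lower in 8 of 16 tested genes and higher in 1 (median -1.5). Dmbt1, a mucosal scavenger that binds bacteria, was at 495, 877, 479.9 and 698 FPKM in DSS_VD and 193, 61.02, 87.3 and 128 in DSS_CS, with water means of 199 and 351. Vaginally born colons lay above both water means and cesarean-born colons below them. Pigr, which carries IgA into the lumen, was at 352, 386, 164 and 287 against 97.4, 20.8, 52.3 and 62.9. Fut2, the fucosyltransferase that IL-22 induces, was at 65.1, 96.2, 63.4 and 35.98 against 26.9, 6.44, 14.05 and 18.3, after 21.9 and 16.9 on water. Nos2, the inducible nitric oxide synthase, fell by 1.85 ± 0.52 and Duox2, an epithelial hydrogen peroxide source, by 1.52 ± 0.39. The serum amyloid genes parted: Saa1, made in epithelium, was at 1359, 1542, 607 and 549 against 278, 76.5, 193 and 192, a fall of 2.44 ± 0.47, while Saa3, was at 49.3, 38.9, 128 and 118 against 116, 336, 314 and 245 and missed the threshold (log2 1.66 ± 0.47, adjusted p = 0.0517). The riser was Lbp, the lipopolysaccharide-binding protein, at 12.4, 9.22, 14.9 and 19.6 against 40.5, 38.1, 41.1 and 43.3 (log2 1.52 ± 0.20). Per 100 FPKM of Epcam, Dmbt1 stood at 112 to 178 FPKM in DSS_VD and 62.1 to 75.7 in DSS_CS, Slc26a3 at 1.74 to 3.35 and 0.274 to 0.916, Hsd11b2 at 2.702 to 3.49 and 0.466 to 1.48 and Fut2 at 9.17 to 20.02 and 7.01 to 10.9. Of 21 genes set against Epcam in this way, chosen after their values were seen, 7 were lower and 5 higher in every DSS_CS library than in every DSS_VD library. The groups overlapped for the other 9, among them Fut2, Vil1, Krt20, Muc2, Slc7a9, Nlrp6 and Hk2.

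Genes of IL-22 and its makers were mostly low. Il22 was at 3.12, 2.67, 4.43 and 9.27 FPKM in DSS_VD and 1.58, 2.18, 1.11 and 1.86 in DSS_CS and was listed at 0 in all 8 water libraries. Each DSS_VD library was above each DSS_CS library, but the adjusted p was 0.0577 (log2 -1.02 ± 0.31); under median-of-ratios scaling it was 0.0445. Il22ra1, the epithelial subunit of the IL-22 receptor, was at 17.5, 17.2, 9.95 and 12.3 against 6.798, 2.28, 5.36 and 5.25 and fell by 1.40 ± 0.28. Ahr, a receptor for dietary and microbial indoles that ILC3 need, was at 5.71, 3.74, 4.95 and 4.82 against 6.03, 9.103, 8.62 and 6.09 (log2 0.53 ± 0.16, adjusted p = 0.0591). Il17a (0.188 to 1.31 against 0 to 1.18), Il23r (0.147 to 0.496 against 0 to 0.419), Il23a, Il12b and Ifng did not pass the filter. Two-sided exact permutation tests gave p = 0.0286 for Il22, the smallest possible with 4 against 4 libraries, and 0.0857 to 0.886 for these 5 genes; adjusted over the 6 tests, that of Il22 was 0.172. Of the 14 tested genes of this list 3 fell and none rose. Areg, an epidermal growth factor receptor ligand, was another of them and is described with its family.

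Genes of the IL-1 family and the inflammasomes moved in both directions. Of 17 tested, 6 rose and 3 fell. Il1b was at 50.9, 28.8, 25.2 and 46.8 FPKM in DSS_VD and 157, 99.1, 159 and 220.3 in DSS_CS, and no DSS_VD library reached the lowest DSS_CS library. Il1f9, the symbol in these tables for IL-36γ, was at 1.72, 0.599, 1.03 and 1.91 against 10.9, 5.15, 10.1 and 11.1 and rose by 2.15 ± 0.27 (adjusted p = 0.0220). Nlrp3, the sensor of the myeloid inflammasome, was at 1.704, 1.17, 1.47 and 2.201 against 9.34, 3.75, 10.9 and 11.7. Il1a rose by 1.39 ± 0.29, and the receptor genes Il1rl1 and Il1rap by 1.68 ± 0.41 and 0.71 ± 0.17. The 3 that fell are expressed in colon epithelium as well as in myeloid cells. Il18 was at 52.8, 66.5, 32.6 and 59.3 against 25.7, 8.81, 8.33 and 19.96. Casp1, the protease that matures IL-1β and IL-18, was at 21.5, 20.8, 15.3 and 16.7 against 11.2, 5.76, 7.28 and 8.58, and Gsdmd, the pore protein of pyroptosis, at 157, 192, 112 and 114 against 89.8, 35.2, 47.1 and 47.8. Among 21 bacterial sensors 3 rose and 3 fell. Fpr1, Fpr2 and Clec4e, receptors of phagocytes, rose by 1.66 ± 0.30, 1.20 ± 0.28 and 1.56 ± 0.33. Nlrp6, an epithelial sensor, Nlrc4 and Tlr3 fell by 1.75 ± 0.39, 1.08 ± 0.20 and 0.54 ± 0.13. Nlrp6 was at 2.98 to 8.67 against 0.311 to 3.02 FPKM, against 46.6 and 47.1 on water.

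**Figure D4:**
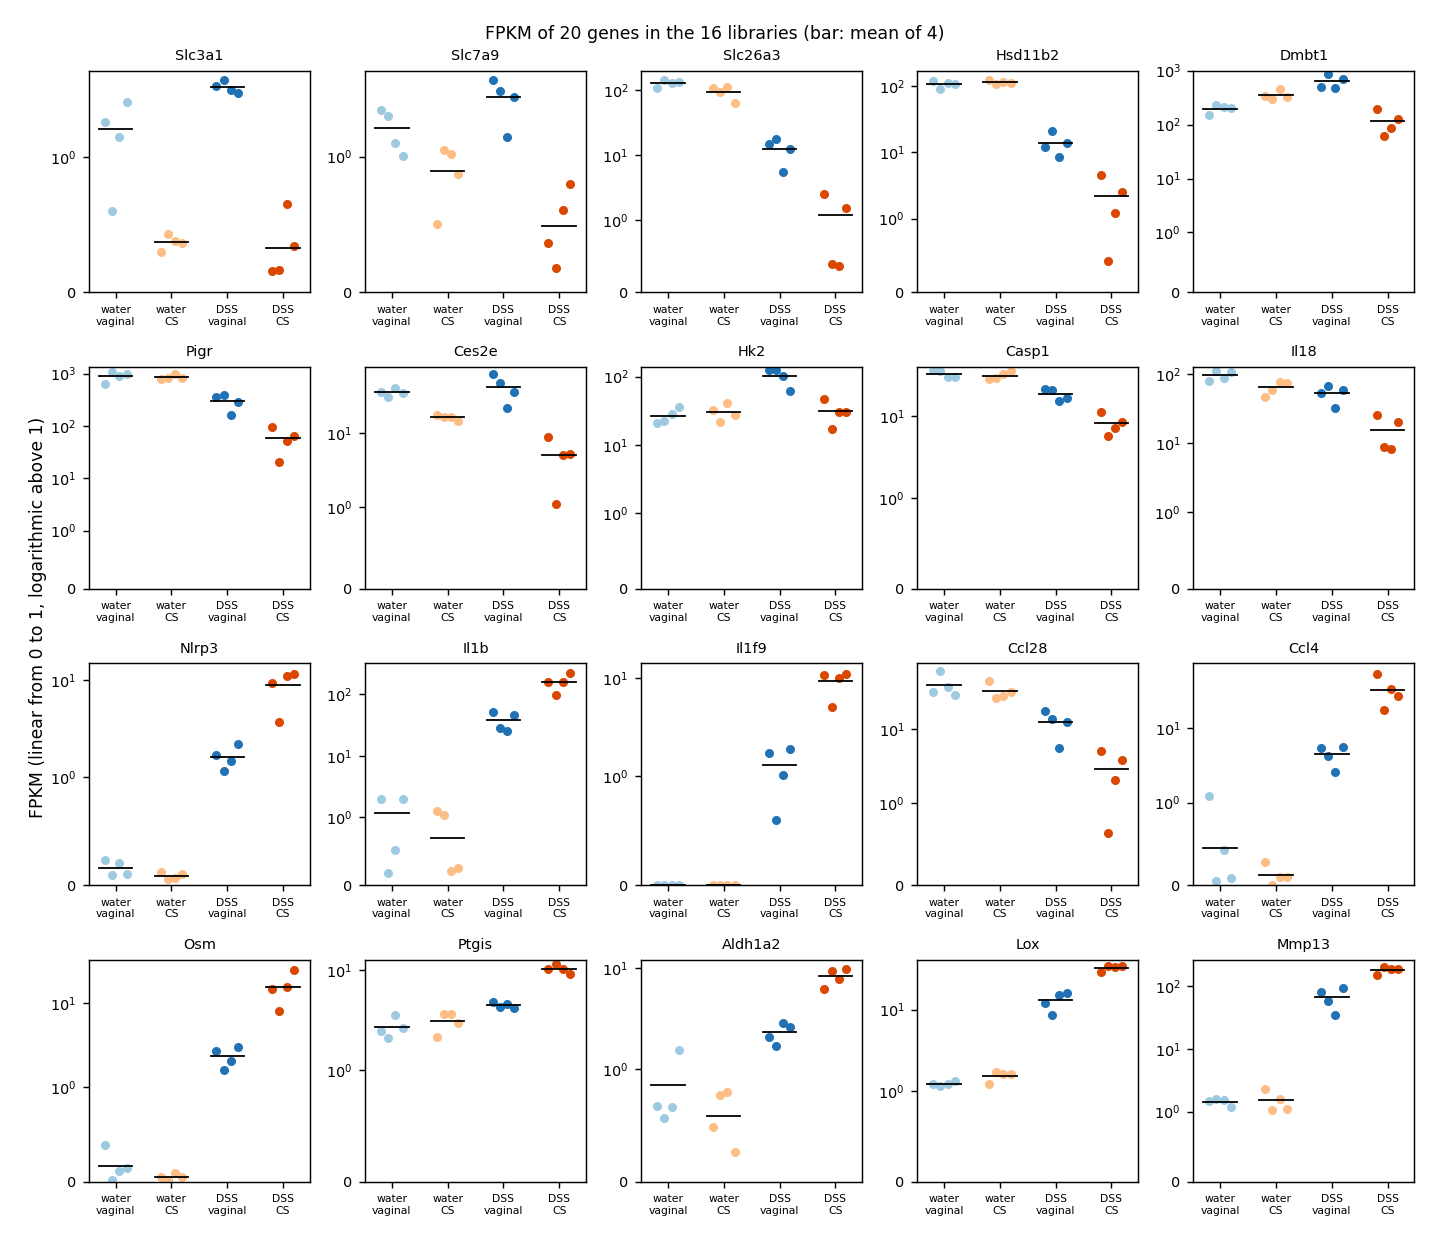
FPKM of 20 genes (vertical axis, linear from 0 to 1 and logarithmic above 1) in each of the 16 libraries (points) with the mean of the 4 libraries of a group (bar). The first 10 genes are lower and, apart from Ccl28, the last 10 are higher in every DSS CS library than in every DSS vaginal library.

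Neutrophil genes were higher in 10 of 17 tested cases, with a median of 1.66. Csf3r, the receptor for granulocyte colony-stimulating factor, was at 11.4, 5.07, 10.3 and 13.4 FPKM in DSS_VD and 31.6, 29.5, 32.7 and 35.6 in DSS_CS, and at no more than 0.268 as a mean on water. S100a9, a subunit of calprotectin, was at 131, 73.4, 141 and 349.6 against 609.6, 453, 690.1 and 759. Hdc, the histidine decarboxylase of immature myeloid cells, rose by 1.83 ± 0.28, Mcemp1 by 1.30 ± 0.20 and Trem1, an activating receptor, by 2.34 ± 0.46. The list also held 2 genes that fell. Ltf, the lactoferrin gene, was at 37.998, 45.97, 14.95 and 19.8 against 6.66, 1.03, 2.87 and 2.15. Ly6g, was at 328, 598, 231 and 360.4 against 154, 58.1, 101 and 81.5, and at means of 103 and 112 on water, where the mean of S100a9 was at most 0.0805. Of 7 tested neutrophil chemokines and colony factors 3 rose, Cxcl3, Cxcl2 and Ppbp, and 4 were not called. Cxcl3 was at 1.08, 1.63, 1.51 and 2.29 against 4.99, 3.64, 10.03 and 7.13, and Cxcl2 at 9.19, 11.4, 7.05 and 23.9 against 63.9, 23.03, 89.1 and 79.6, where DSS_VD replicate 4 overlapped DSS_CS replicate 2. Acod1, the itaconate-making enzyme of activated myeloid cells, rose by 2.16 ± 0.44, and the secreted protease inhibitors Wfdc21 and Wfdc12 by 2.05 ± 0.31 and 2.51 ± 0.55. Slpi and Serpinb1a, protease inhibitors also made by epithelium, fell by 0.63 ± 0.17 and 1.5 ± 0.32. Hp, the haptoglobin gene, was at 17.4, 11.6, 42.02 and 39.4 against 81.99, 106, 101 and 141.

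CC chemokines rose in 4 of 17 cases and fell in 1. Ccl4, which draws monocytes and lymphocytes, was at 5.46, 4.19, 2.58 and 5.58 FPKM in DSS_VD and 53.8, 17.7, 34.05 and 27.01 in DSS_CS. Ccl3, its neighbour on chromosome 11, was at 6.76, 4.92, 2.26 and 5.79 against 31.3, 16.4, 27.04 and 31.2. Ccl6 and Ccl9 rose by 0.92 ± 0.16 and 1.11 ± 0.25. Ccl28, an epithelial chemokine that recruits IgA plasma cells, was at 17.6, 13.8, 5.52 and 12.7 against 5.14, 0.6404, 2.04 and 3.81 and fell by 1.85 ± 0.45. In the IL-6 family 7 of 13 rose and none fell. Osm, a myeloid cytokine that acts on stroma, was at 2.69, 1.62, 2.07 and 3.01 against 14.6, 7.89, 15.2 and 24.2 (adjusted p = 0.0225), and its receptor Osmr at 6.61, 4.995, 7.54 and 5.95 against 10.01, 10.2, 13.9 and 9.55. The shared signal chain Il6st and the interleukin-11 receptor Il11ra1 rose by 0.90 ± 0.22 and 0.83 ± 0.16, while Il6 itself, was at 1.98 to 11.4 against 5.37 to 14.4 and was not called (adjusted p = 0.339). The TNF family had 4 of 15 higher, among them the receptors Tnfrsf1a and Tnfrsf12a and the ligand Tnfsf14, which rose by 0.56 ± 0.11, 0.82 ± 0.19 and 0.83 ± 0.17, with Tnfrsf12a not called under median-of-ratios scaling. Tnf was at 7.53 to 18.98 against 7.53 to 20.99 and was not called (log2 -0.25 ± 0.35, adjusted p = 0.657). Complement rose in 4 of 14 cases, with C3 at 82.4 to 174 against 237 to 291, the classical pathway protease C1ra at 31.3 to 59.6 against 72.97 to 92.01, the membrane protector Cd59a at 15.4 to 23.1 against 27.1 to 40.8 and the adipocyte factor Cfd described with the fat genes.

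Other immune lists held 0 to 3 calls each, where 13.4% of all tested genes were called. In the monocyte and macrophage list 2 of 20 rose, Fn1 and Itgam, with a median of 0.61 (0.33 without the pair with prostate RNA and 0.35 without DSS_VD replicate 2). Fn1 encodes fibronectin, which fibroblasts also make. None of 10 MHC class II genes was called by limma (0 at unadjusted p under 0.05) and all 10 differences were below 0 (median -0.38, adjusted p = 0.226 for H2-Eb1). That median was -0.67 without the pair with prostate RNA, with 2 of the 10 at unadjusted p under 0.05, and in fits without 1 library it ran from -0.57, without DSS_VD replicate 2, to -0.23, without DSS_CS replicate 2. Interferon-gamma-induced genes fell in 3 of 19 cases, with no difference above 0: Gbp2, a GTPase, was at 107, 125, 103 and 52.7 FPKM in DSS_VD and 62.4, 38.5, 35.3 and 33.4 in DSS_CS, Psmb9 of the immunoproteasome fell by 0.77 ± 0.20, and the chemokine Cxcl9 was at 6.05, 5.16, 25.5 and 7.02 against 2.79, 1.199, 1.405 and 3.23. Of 23 type I interferon-stimulated genes Ifih1, a sensor of viral RNA, was called lower, at 14.6, 9.73, 7.19 and 6.75 against 6.49, 3.37, 4.197 and 4.45, and the median was -0.88, or -0.54 without DSS_VD replicate 1. No gene was called by limma among 17 of T and NK cells, 17 of B and plasma cells and 10 of mast cells and eosinophils, where 0, 0 and 1 were at unadjusted p under 0.05. The members of smallest p in these lists, Cd4, Cr2 and Gata2, had adjusted p of 0.387, 0.289 and 0.0751. In the T and NK list 14 of 17 differences were below 0 (median -0.12), and in the B and plasma cell list 16 of 17 (median -0.30). Without the pair with prostate RNA these medians were -0.53 and -0.69. In that fit 3 of 15 and 5 of 17 genes were at unadjusted limma p under 0.05.

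Genes of the stromal matrix were higher in DSS_CS. Collagen chains rose in 11 of 18 cases, matrix glycoproteins and cross-linkers in 13 of 22, and metalloproteinases and their inhibitors in 9 of 18, with medians of 0.93, 0.84 and 1.05 and no fall. Every tested member of these 3 lists had a difference above 0, against 7 of 14 in the stem cell list. Col1a1, a chain of type I collagen, was at 78.3, 42.997, 85.8 and 74.8 FPKM in DSS_VD and 144, 144, 144 and 170.1 in DSS_CS. Col16a1 and Col5a3 rose by 0.98 ± 0.18 and 1.25 ± 0.25. Lox, which cross-links collagen and elastin, was at 12.1, 8.49, 15.2 and 16.01 against 29.1, 33.9, 33.6 and 34.4, after 1.22 and 1.55 on water. Tnc, the wound glycoprotein tenascin-C, was at 37.9, 31.8, 46.2 and 49.8 against 93.4, 171, 138 and 86.5, and Loxl1 rose by 0.98 ± 0.17. Timp1, an inhibitor of metalloproteinases, was at 45.4, 40.7, 69.3 and 49.995 against 152, 204, 137 and 94.4. Adamts5, a proteoglycan-cleaving protease, rose by 0.98 ± 0.17. Mean log2(FPKM + 1) over the collagen list was 4.67, 3.86, 4.69 and 4.68 in DSS_VD and 5.06, 5.51, 5.56 and 5.38 in DSS_CS, so the library with the least epithelium, DSS_CS replicate 2, and DSS_CS replicate 3 were highest. The part of the epithelial share in this result was not tested. Without the pair with prostate RNA the medians of the 3 lists were 0.82, 0.82 and 0.90.

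Interstitial collagenase and stromelysin 2 lie in 1 cluster on chromosome 9. Mmp13, the collagenase, was at 79.3, 57.8, 35.02 and 93.97 FPKM in DSS_VD and 151, 199.5, 188 and 185 in DSS_CS, and Mmp10, the stromelysin, at 73.4, 50.3, 38.1 and 90.9 against 119, 165, 243 and 202. From DSS_VD to DSS_CS they rose by 1.51 ± 0.28 and 1.54 ± 0.31. Their means on water were at most 1.51 and 0.548. The 250 bases before their starts are shown because both genes rose and both were low on water. Capitals mark TGANTCA, the AP-1 motif, on either strand. They lie on the plus strand at chr9:7502092-7502341 and chr9:7272264-7272513 (RefSeq, GRCm38.p6).
Mmp10: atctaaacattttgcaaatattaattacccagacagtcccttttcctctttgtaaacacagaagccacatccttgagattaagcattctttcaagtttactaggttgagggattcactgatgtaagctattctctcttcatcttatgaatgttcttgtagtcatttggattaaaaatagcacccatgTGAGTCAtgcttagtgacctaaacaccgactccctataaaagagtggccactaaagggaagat
Mmp13: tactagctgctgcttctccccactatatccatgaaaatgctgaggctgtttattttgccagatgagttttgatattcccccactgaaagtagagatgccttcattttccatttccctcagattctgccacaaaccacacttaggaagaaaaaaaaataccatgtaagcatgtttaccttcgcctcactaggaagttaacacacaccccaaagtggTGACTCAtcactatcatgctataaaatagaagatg
The motif begins 63 bases before the start of Mmp10 and 35 bases before that of Mmp13. It is in 6.75% of all promoters. Counted by gene, with a match in any of its promoters, it is in 593 of 9957 tested genes (5.96%), in 62 of 846 called higher (7.33%) and in 53 of 559 called lower (9.48%). The Slc3a1 stretch shown above also holds it, 140 bases before the start of that gene.

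Clotting, growth factor and niche genes of the stroma held further rises and no falls. In plasminogen activation and clotting 6 of 14 were higher: F13a1, the fibrin-stabilising factor of macrophages, was at 7.82, 3.92, 9.75 and 9.34 FPKM in DSS_VD and 23.3, 18.9, 22.6 and 21.6 in DSS_CS. Serpine2, a protease inhibitor of fibroblasts, was at 8.96, 5.62, 4.29 and 11.7 against 18.3, 61.7, 44.1 and 32.7, and Plau, the urokinase gene, at 33.5, 19.2, 15.3 and 31.1 against 51.1, 86.3, 81.9 and 61.7. In the insulin-like growth factor axis 5 of 10 rose and none fell, with Igfbp6 at 10.1, 6.81, 9.26 and 9.29 against 18.1, 23.3, 22.1 and 30.04, Igf2r at 7.29 to 9.19 against 12.3 to 15.2 and Igfbp5 at 256, 170.2, 332 and 321 against 667, 1044, 795 and 501. Igf1 rose by 0.93 ± 0.21. Of 22 fibroblast and niche signals 9 rose and none fell. Cd34 and Thy1, surface proteins of stromal cells, were at 4.58 to 9.17 against 12.9 to 14.6 and at 12.3 to 16.9 against 20.4 to 28.4. The R-spondins, which amplify Wnt signals in crypts, included Rspo3, which rose by 1.08 ± 0.25, as did the bone morphogenetic protein antagonist Grem1, by 1.07 ± 0.24. Rspo1 was at 0.461, 0.429, 0.671 and 0.821 against 1.36, 1.73, 1.19 and 1.59; it is counted among the 9 but passed the filter through DSS_CS alone.

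Prostacyclin and retinoic acid genes gave some of the smallest p-values. Ptgis, prostacyclin synthase (ENSMUSG00000017969, chromosome 2, 167191805 to 167240604), was at 4.79, 4.28, 4.62 and 4.22 FPKM in DSS_VD and 10.4, 11.7, 10.3 and 9.16 in DSS_CS. The spread within each group was small, the rise was 1.05 ± 0.09, and the adjusted p was 0.0146. Ptges, which makes prostaglandin E2, was at 18.3, 11.7, 19.5 and 20.8 against 25.6, 42.7, 46.2 and 45.1, and the receptors Ptger3 and Ptgir rose by 0.71 ± 0.14 and 0.77 ± 0.18. Ptgs2, the inducible cyclooxygenase, was at 2.84 to 22.8 against 17.8 to 47.6 and was not called (adjusted p = 0.183). Aldh1a2, which makes retinoic acid from retinal, was at 2.099, 1.68, 2.83 and 2.61 against 6.27, 9.36, 7.79 and 9.78 (log2 1.49 ± 0.16, adjusted p = 0.0209). The receptors Rarg and Rara were at 5.23, 4.595, 5.81 and 4.72 against 10.7, 10.8, 8.87 and 9.73 and at 4.29 to 5.67 against 6.695 to 7.75, and Rara was not called under median-of-ratios scaling. A pair of epithelial genes of the same list pointed the other way without being called: Aldh1a3 was at 41.9 to 144 against 26.2 to 73.8, and Rdh16 at 5.36 to 27.7 against 1.098 to 8.51 (adjusted p = 0.129 and 0.0577).

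Ligands of the epidermal growth factor receptor did not move as 1 family. Of 10 tested genes 4 fell and 1 rose. Areg was at 26.5, 20.5, 13.7 and 23.3 FPKM in DSS_VD and 13.4, 11.6, 8.94 and 9.82 in DSS_CS, Tgfa fell by 0.76 ± 0.17 and Hbegf by 1.11 ± 0.29. The receptor Erbb3 was at 37.6, 43.2, 20.7 and 25.5 against 17.5, 5.75, 7.46 and 8.06, a fall of 1.67 ± 0.34. The riser was Epgn, the epigen gene, at 0.534, 0.472, 0.351 and 1.02 against 1.14, 3.08, 1.74 and 1.76. Ereg, the epiregulin gene, was at 70.2, 45.003, 34.7 and 95.4 against 65.5, 258, 149 and 199 and missed the threshold (log2 1.38 ± 0.45, adjusted p = 0.0742).

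Stress genes moved in both directions. Of 17 unfolded protein response genes 2 rose and 1 fell, and of 12 heat shock genes 3 rose. Over all tested genes 13.4% were called. Ier3, an early survival gene, was at 33.4, 34.3, 28.6 and 42.6 FPKM in DSS_VD and 67.4, 76.5, 71.4 and 78.1 in DSS_CS (log2 1.07 ± 0.13, adjusted p = 0.0218) and was the 1 call among 15 immediate early genes. In the unfolded protein response list Atf4 and Ddit3, which encode the stress factors ATF4 and CHOP, were at 52.96 to 58.1 against 65.6 to 86.1 and at 6.59 to 8.38 against 9.57 to 14.7, while Ern2, the goblet cell stress sensor, was at 3.82, 4.74, 2.79 and 5.71 against 2.08, 0.731, 1.61 and 1.896 and fell by 1.03 ± 0.23. Of 12 heat shock genes Hspb1, Hspa1a and Hsph1, of which the last overlapped between the groups, rose by 0.99 ± 0.25, 0.65 ± 0.17 and 0.69 ± 0.19. Under median-of-ratios scaling neither Atf4 and Ddit3 nor these 3 were called. None of 11 clock genes was called by limma (3 at unadjusted p under 0.05).

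Genes of deeper layers and of blood differed between the same groups. Of 10 enteric neuron genes 4 rose and none fell. Tubb3, the neuronal tubulin, was at 4.66, 5.38, 5.63 and 6.08 FPKM in DSS_VD and 15.2, 25.9, 13.8 and 10.3 in DSS_CS, Vip, a neuropeptide gene, at 26.5, 25.6, 27.6 and 40.5 against 76.7, 104, 61.9 and 50.3, and Stmn2 at 2.51 to 3.52 against 4.75 to 6.87. Nos1 rose by 1.02 ± 0.27 and was not called under median-of-ratios scaling. In 3 of these 4 genes DSS_CS replicate 2 was highest and replicate 4 lowest of the group. Of 8 tested genes of the enteric glia list 1 was called higher, Cdh19, and 1 lower, Erbb3, which fell by 1.67 ± 0.34. Cdh19 was at 0.965, 0.696, 0.597 and 0.987 against 2.47, 3.37, 1.4004 and 1.91 and passed the filter through DSS_CS alone. The glial factor Sox10 was at 1.16, 0.819, 0.935 and 0.905 against 2.48, 3.79, 1.45 and 1.54 (adjusted p = 0.0553). Smooth muscle had 1 call of 13, Cald1, at 43.7, 38.9, 47.1 and 53.99 against 96.1, 131, 89.4 and 62.5. The smooth muscle median was 0.65 with 9 of 13 at unadjusted p under 0.05, 0.99 with 13 without the pair with prostate RNA, and 0.42 without DSS_CS replicate 2. Endothelium had 1 call of 17, Vwf, at 1.11 to 2.78 against 3.89 to 5.05. All 17 endothelial differences were above 0, with a median of 0.59 and 14 at unadjusted limma p under 0.05. That median was 0.52 without the pair with prostate RNA, with 1 at unadjusted p under 0.05, and 0.39 without DSS_VD replicate 2. Hba-a2, an alpha-globin gene, was at 67.4, 46.7, 24.7 and 126 against 402, 157, 1785 and 1250.4; the highest values were in the pair with prostate RNA, and the difference was 3.43 with that pair and 2.14 without it. The erythroid gene Alas2 overlapped between the groups at 0.787 to 4.23 against 4.08 to 41.3 and was called (adjusted p = 0.0438). Of the fat genes, Cfd was at 0, 0, 12.6 and 1.91 against 13.4, 27.4, 15.6 and 104, Plin4 rose by 0.93 ± 0.18, and Adipoq, below the filter, reached 0.454 to 12.97 in DSS_CS with the top value in replicate 4. The squamous genes Krt6b and Dsg3 were at 1.45 to 23.04 against 0.187 to 1.86 and at 0.414 to 2.34 against 0.133 to 1.04 and were not called. What part these cells had in the other differences was not tested.

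The birth-mode difference under DSS was also set against the one on water, in 1 fit on all 16 libraries. Among 15233 genes, 2015 had a difference that itself differed between DSS and water (13.2%), 1017 with a more positive and 998 with a more negative value under DSS. This test shares the DSS libraries with the comparison above. Osm, Prg4, Rarg and Dmbt1 were among the genes called in it, with adjusted limma p of 0.00279, 0.00264, 0.00221 and 0.00221. The water means of Osm and Prg4 were at most 0.165 and 0.118 FPKM, so for these genes the test largely repeats the difference under DSS. Prg4, the lubricin gene, was at 0.273, 0.786, 1.23 and 0.985 FPKM in DSS_VD and 6.42, 4.66, 9.12 and 4.77 in DSS_CS. For Retnlb the adjusted p of this test was 0.446, and on water it was at a mean of 585 ± 194 in CON_VD and 77.7 ± 90.2 in CON_CS (SD, n = 4).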

How the data were processed

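RNA-seq of colon total RNA was analysed as the FPKM values the authors deposited, 1 column per library for 39328 genes. The submitters' processing notes list cutadapt, FastQC and the build GRCm38. The sources used here give no aligner or quantifier, and read depth is unknown, so no counting interval could be computed. FPKM summed to 280135 to 322126 per DSS library, with 24821 to 26328 genes above 0. All per-sample columns were used. Symbols matched 39181 genes in GENCODE M21.

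Groups came from the sample labels. Genes with FPKM of at least 1 in at least 4 of the 8 DSS libraries were compared on log2(FPKM + 1), a scale that understates changes of low genes, with limma 3.58.1 (R 4.3.3) with an intensity trend and Benjamini-Hochberg adjustment at 0.05. A second limma fit on all 16 libraries tested the difference of the birth-mode effect between DSS and water. A few single genes had exact permutation tests (scipy 1.17.1). The procedure was tested on simulated data: of 191 among 14062 genes changed by 1 log2 unit, 69.6% were recovered, with 9 false calls. These values hold for that simulation only. The number of false calls among the genes called between DSS_CS and DSS_VD was not tested. The gene lists and the comparison were chosen with earlier results of these data known. By rule, the 15 largest rises and falls among called genes without overlap (mean FPKM of at least 5 in the higher group, without immunoglobulin or T cell receptor segments and unnamed genes), the 3 members of smallest p in each list, and 9 chosen genes could be named; other genes were added after their values were seen. Some genes of the lists are not reported here. Alternatives were another pseudocount, no filter or a stricter one, other scalings, no trend, array weights, a fit on 4 groups, a replicate block, and fits without 1 library or without the pair with prostate RNA.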

Additional observations from a re-analysis of the deposited data

Results flagged for a closer look

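Of 448 gene and group combinations looked at, 18 had 1 library far from the other 3, by a gap on the log2 scale that passes Dixon's 95% limit for 4 samples; chance gives about 1 in 20. DSS_CS replicate 2 was the low library for Fcgbp (0.949 of the range), Aqp8 (0.918), Il1f9 (0.882) and H2-Eb1 (0.874), and the high library for Stmn2 (0.953), Ckm (0.858) and Cd59a (0.836). DSS_CS replicate 1 was low for Hsph1 (0.896), Ptges (0.868) and Lox (0.854), and high for Tgfa (0.894) and Aldh1a3 (0.832). DSS_CS replicate 4 was high for Col1a1 (0.993). DSS_VD replicate 2 was low for Slc2a3 (0.968), Igf1 (0.895) and Ddx3y (0.894). DSS_VD replicate 1 was low for Dsg3 (0.876), and DSS_VD replicate 4 was high for Vip (0.836).

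The effect of cesarean birth under DSS differed from that on water for 2015 genes by limma's test of that difference. Of the called genes named here, the 10 of smallest p were Dmbt1, with -3.33 log2 units more under DSS than on water, Nlrc4 (-1.89), Ccl4 (2.88), Osm (2.36), Il1f9 (2.15), Tubb3 (1.99), Prg4 (1.94), Aldh1a2 (1.71), Lbp (1.57) and Rarg (1.06). Il1f9 was listed at 0 in every water library, so its value only repeats the difference under DSS. Ccl4, Osm and Prg4 had water means of at most 0.445, 0.165 and 0.118 FPKM, which left little room for a difference on water.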

How the results depend on the processing

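The adjusted count depended on the setting far more than the direction of single genes did. Against 1923 calls (1130 higher, 793 lower), no filter on low values gave 3 (1 and 2) of 32941 genes, a fit on all 4 groups 3855 (2409 and 1446), and leaving out DSS_CS replicates 3 and 4 gave 6 (2 and 4). Fits without 1 library gave 0 to 2054 calls, 0 to 958 higher and 0 to 1096 lower. The other alternatives gave 1452 to 2359 calls. The cause of these differences was not tested, other than that fewer samples or more genes enter some fits. With the replicate number as a block there were 2 calls (1 and 1), of which the higher gene was Il1f9. Correlations of deviations between same-numbered DSS_VD and DSS_CS libraries were 0.0482, -0.23, 0.113 and -0.0435 and no library matched its own number best, so the numbers were not taken as a pairing.

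For the difference between DSS and water, 2015 calls became 1042 without a filter, 1102 without DSS_CS replicates 3 and 4, and 1056 to 2515 in fits without 1 library. No called gene named in the text changed direction under an alternative. Of those not called, Creb3l1 went to -0.0231 under median-of-ratios scaling and ranged over -0.112 to 0.29 in fits without 1 library, Cldn4 ranged over -0.138 to 0.305 in such fits, and mt-Co1 went to 0.0412 without DSS_CS replicates 3 and 4. Read depth is unknown, and low genes are the least precise.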

Other observations

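Lists of tissues next to the mucosa gave further values. Gpm6a, a membrane protein of mesothelium and neurons, was at 0.989, 0.875, 1.09 and 0.9097 FPKM in DSS_VD and 1.63, 2.06, 1.82 and 2.14 in DSS_CS and rose by 0.56 ± 0.10. The platelet genes Ppbp and Itga2b were at 1.06, 0.672, 0.442 and 1.03 against 1.28, 5.24, 7.09 and 4.57 and at 0.971 to 1.29 against 1.41 to 2.76, and Itga2b was not called under median-of-ratios scaling. Rbp2, a retinol-binding protein of absorptive cells, was at 18.2, 24.5, 10.03 and 7.37 against 3.31, 1.75, 2.43 and 4.28 and fell by 1.93 ± 0.36. The muscle gene Ckm was at 0.788 to 1.45 against 1.05 to 2.08 and the pancreatic protease Cela1 at 9.19 to 18.7 against 6.23 to 12.8; neither was called (limma adjusted p = 0.499 and 0.0916). Gal, the galanin neuropeptide gene, was among the 6 genes called without DSS_CS replicates 3 and 4 (log2 2.42, adjusted p = 0.0367).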
